A study of Homo sapiens with 12 samples.

Results

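The 10 genes described here, ALB, TTR, TF, AHSG, HP, HPX, RBP4, AMBP, ORM1 and VTN, encode abundant carrier proteins that hepatocytes secrete into plasma. They were taken from a list of names chosen with earlier results of these data known. Each was measured by 1 probe, so that 10 of the 50599 probes on the array and 10 of the 20503 genes named through them were used. HA22T and PLC5 are human hepatocellular carcinoma (HCC) cell lines, grown in culture with serum. Both lines received a control siRNA without a target (siControl) or a pool of siRNAs against GALNT1 (siGALNT1), an enzyme that starts mucin-type O-glycans, each at 10 nM, and total RNA was extracted 48 h later. The 4 groups, HA22T siControl, HA22T siGALNT1, PLC5 siControl and PLC5 siGALNT1, had 3 one-color arrays each, without an untransfected group. Nothing in the labels says that the replicates came from separate cultures, so p-values measure the spread between these arrays.

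Carrier proteins keep poorly soluble or reactive molecules in circulation. Albumin (ALB) binds fatty acids and many drugs, transthyretin (TTR) and retinol-binding protein (RBP4) travel together with retinol, transferrin (TF) carries iron, and haptoglobin (HP) and hemopexin (HPX) capture free hemoglobin and heme. Their transcription in hepatocytes relies on liver-enriched factors of the HNF1, HNF4, FOXA and C/EBP families. Several of them also respond to interleukin 6 in the acute phase, HP and ORM1 upward and ALB and TTR downward.

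Promoter sequences are shown for 4 genes that differed between the lines, because motifs of these factors can be read in them, and for HPX, which did not pass the test, beside them. RefSeq promoters (GRCh38.p14, the 200 bases before the transcript start) were given for 8 of the 10 genes, 11 promoters in all, with none for TTR and HP. Capitals mark matches to short motifs. The HNF1 core was searched on both strands as GTTAAT. For the FOXA family the letters searched, again on both strands, were TGTTTNC. The C/EBP motif was TTGCNNAA and the HNF4 motif CAAAGNCCA, likewise on both strands. The TATA box was searched on the printed strand only, with the letters TATAAA. The ALB promoter lies at chr4:73404087-73404286 (plus strand), AHSG at chr3:186612860-186613059 (plus), VTN at chr17:28370308-28370507 (minus), ORM1 at chr9:114322898-114323097 (plus) and HPX at chr11:6440988-6441187 (minus).
ALB: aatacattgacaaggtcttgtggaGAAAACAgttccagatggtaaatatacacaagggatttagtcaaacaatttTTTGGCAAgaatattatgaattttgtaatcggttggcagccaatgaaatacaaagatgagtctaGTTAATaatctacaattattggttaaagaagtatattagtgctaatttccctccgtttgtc
AHSG: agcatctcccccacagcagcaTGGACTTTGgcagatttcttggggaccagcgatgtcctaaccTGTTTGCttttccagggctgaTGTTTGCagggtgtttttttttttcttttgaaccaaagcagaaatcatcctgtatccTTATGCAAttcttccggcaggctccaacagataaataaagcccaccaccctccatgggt
VTN: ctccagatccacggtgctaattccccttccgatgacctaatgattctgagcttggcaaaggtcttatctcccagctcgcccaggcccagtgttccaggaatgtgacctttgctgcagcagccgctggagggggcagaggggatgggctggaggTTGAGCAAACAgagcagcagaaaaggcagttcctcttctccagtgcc
ORM1: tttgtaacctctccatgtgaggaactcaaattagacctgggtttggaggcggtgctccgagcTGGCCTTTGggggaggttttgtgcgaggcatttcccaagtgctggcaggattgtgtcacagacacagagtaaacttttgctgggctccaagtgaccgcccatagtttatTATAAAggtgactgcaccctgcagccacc
HPX: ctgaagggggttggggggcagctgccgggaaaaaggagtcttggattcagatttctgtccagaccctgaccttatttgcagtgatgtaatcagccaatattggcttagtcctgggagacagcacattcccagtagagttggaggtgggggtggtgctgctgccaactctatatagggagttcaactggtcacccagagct

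In the ALB promoter the HNF1 core began 61 bases before the start. AHSG held 2 FOXA matches, and in VTN the FOXA and C/EBP matches overlap, which gives 1 longer run of capitals. A FOXA match was found in 4 of the 11 promoters (those of AHSG, ALB, AMBP and VTN), against 12.4% of 35116 RefSeq promoters of the same length. C/EBP letters were found in 5 of 11 (6.91% of all promoters), HNF4 letters in 2 (1.06%), the TATA box in 2 (5.58%) and the HNF1 core in 1 (4.89%). These matches are descriptions of the sequence, and HPX had none in this window. RBP4 and TF, which differed most between the lines, have more than 1 promoter, numbered here from the most upstream. RBP4 promoters 1 and 2 and TF promoter 1 had no match either. RBP4 promoter 3 held C/EBP and TATA box letters, and TF promoter 2 held C/EBP letters. Whether motifs go with the line difference was not tested.

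Values are log2 signals with the 75th percentile of the array set to 0. They compare 1 probe between arrays and do not rank the genes against each other, and fewer expressing cells cannot be told apart from less RNA per cell. Between 36679 and 48873 of the 58717 spots on an array were well above background, a flag set by the scanner software, and a value without that flag is only an upper bound. GALNT1 itself checked the labels. Its brighter probe read 1.00 to 1.41 on the HA22T siControl arrays and -5.35 to -2.83 on the siGALNT1 arrays, and in PLC5 0.41 to 0.99 and -3.77 to -1.85, with no overlap in either line. The 6 HA22T arrays shared slide 1 with replicate 1 of both PLC5 groups, whereas replicates 2 and 3 of PLC5 were hybridized on slide 2.

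**Figure D1:**
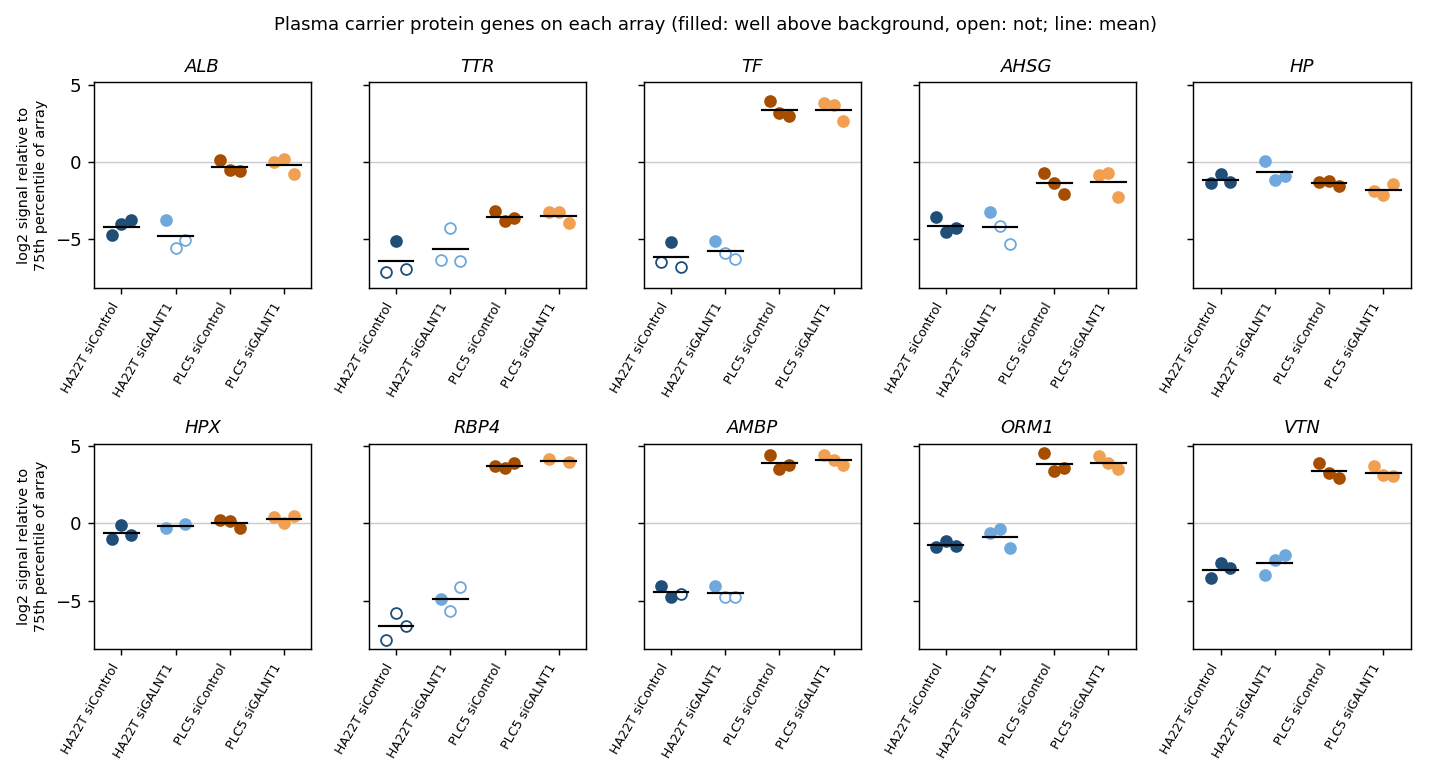
Log2 signal relative to the array's 75th percentile (y axis) for each of the 10 genes on the 12 arrays (x axis, group). Filled points are well above background, open points are not, and lines are group means. TF, RBP4, AMBP, ORM1 and VTN lie far higher in PLC5, and HP and HPX overlap between the lines on the siControl arrays. In HA22T the RBP4 points with siGALNT1 lie above those with siControl, most of them open.

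The first comparison was between the lines with siControl. RBP4, TF, AMBP, VTN, ORM1, ALB, TTR and AHSG were higher in PLC5, while HP and HPX did not pass the test. That is 8 of 10 genes higher and 0 lower at an adjusted p below 0.05 (limma, Benjamini-Hochberg adjustment over 38011 probes). Of those probes 9.61% were higher and 13% were lower. The list was chosen with earlier results of these data known, so these counts describe it and are not a test of it. Testing required 3 of the 6 arrays well above background, which 3 PLC5 arrays meet alone. Among the 8, RBP4, TF, TTR and AMBP met it only through PLC5. They had 0 (RBP4), 1 (TF and TTR) and 2 (AMBP) HA22T arrays well above background. With all 6 arrays required to be well above background, 4 genes passed. The median log2 difference of the 10 genes was 4.53, against -0.21 over 17417 genes tested. In the siGALNT1 arrays, which are other arrays, the same direction passed for 8 genes, with HP lower, while 10.3% of 36741 probes were higher and 15% were lower. There TTR, with 0 HA22T arrays well above background, and ALB, TF, AHSG and AMBP, with 1 each, met the filter only through PLC5. RBP4 met it with 1 HA22T and 2 PLC5 arrays. With all 6 arrays required, 3 genes passed, ORM1 and VTN higher and HP lower. The median of all tested probes was -0.15 with siControl and -0.32 with siGALNT1, and the differences are to be read relative to it. Among all calls with siGALNT1, 40.8% were higher in PLC5 with this scaling and 55.5% in the log2 table that the authors deposited.

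RBP4, which carries retinol from the liver, read -7.53, -5.79 and -6.67 on the HA22T siControl arrays, none of them well above background, and 3.71, 3.62 and 3.88 in PLC5. Its log2 difference of 10.40 (SE 0.47) had an adjusted p of 3.29e-07 by limma. Since HA22T had no measured value, the fitted value and its p-value rest on readings at background, and the difference is given as at least 547-fold. With siGALNT1 the difference was 8.96 (SE 0.52, adjusted p = 1.51e-06, limma), with 1 of 3 HA22T arrays well above background and only 2 PLC5 values, since the spot on PLC5 siGALNT1 replicate 2 was flagged as non-uniform.

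TF, the iron carrier of plasma, read -6.51, -5.17 and -6.82 in HA22T siControl, 1 of 3 arrays well above background, and 3.93, 3.14 and 2.95 in PLC5. The log2 difference was 9.51 (SE 0.50, adjusted p = 3.68e-07, limma), where the fit used the 2 unflagged HA22T values as they were read. With siGALNT1 it was 9.14 (adjusted p = 5.05e-07). All PLC5 values lay above all HA22T values in both cases.

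TTR binds thyroxine and holds RBP4 in circulation. It was dim in both lines, at -7.15, -5.11 and -6.93 in HA22T siControl and -3.19, -3.85 and -3.64 in PLC5, with 1 of 3 HA22T arrays well above background. The difference was 2.84 (SE 0.63, adjusted p = 0.00733, limma), and 3.48 without HA22T siControl replicate 2. With siGALNT1, where no HA22T array was well above background, it was at least 2.28-fold (log2 difference 2.18, adjusted p = 0.0276), and this call was lost with normexp background correction, with the slide as a block, and without HA22T siGALNT1 replicate 1 (1.85) or 3 (1.81) or PLC5 siGALNT1 replicate 1 (2.05) or 2 (2.07).

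AMBP encodes the precursor of alpha-1-microglobulin and of bikunin. It read -4.03, -4.74 and -4.60 in HA22T siControl, 2 of 3 well above background, and 4.42, 3.49 and 3.80 in PLC5, a log2 difference of 8.36 (SE 0.34, adjusted p = 6.73e-08, limma). With siGALNT1 the difference was 8.63 (adjusted p = 5.77e-08). VTN encodes vitronectin, which binds integrins. It read -3.55, -2.60 and -2.92 in HA22T siControl and 3.90, 3.28 and 2.95 in PLC5, all well above background, so that its difference of 6.40 (SE 0.40, adjusted p = 1.06e-06, limma) or 84.5-fold rests on measured values on both sides. With siGALNT1 it was 5.87.

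ORM1, an acute-phase carrier of basic drugs, read -1.51, -1.17 and -1.48 in HA22T siControl and 4.55, 3.39 and 3.56 in PLC5. The difference was 5.22 (SE 0.40, adjusted p = 4.12e-06, limma) and 4.80 with siGALNT1. ORM2 is a near-identical gene, and its probe was also higher in PLC5, by 4.23 (SE 0.34) with siControl, although the probes of such a pair may bind both transcripts.

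ALB read -4.74, -4.03 and -3.78 in HA22T siControl, all well above background, and 0.12, -0.54 and -0.59 in PLC5. The log2 difference was 3.85 (SE 0.47, adjusted p = 1.23e-04, limma), or 14.4-fold, and 4.60 with siGALNT1, where 1 of 3 HA22T arrays was well above background. AHSG (fetuin A), an inhibitor of mineral precipitation, read -3.54, -4.55 and -4.30 in HA22T siControl and -0.70, -1.39 and -2.07 in PLC5. Its difference was 2.75 (SE 0.59, adjusted p = 0.00551, limma), and 2.95 with siGALNT1. The HA22T and PLC5 arrays did not overlap for either gene.

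HP read -1.35, -0.79 and -1.32 in HA22T siControl and -1.29, -1.22 and -1.54 in PLC5, so the groups overlapped and the difference was -0.20 (95% interval -0.95 to 0.56, adjusted p = 0.740, limma). With siGALNT1 HP read 0.05, -1.16 and -0.89 in HA22T and -1.86, -2.12 and -1.41 in PLC5, a difference of -1.13 (SE 0.34, adjusted p = 0.0331, limma). The call was lost without HA22T siGALNT1 replicate 1 (-0.77), without PLC5 siGALNT1 replicate 1 (-1.10) or replicate 2 (-0.97), with the slide as a block, and in the deposited table. HPR, a close relative of HP, overlapped between the lines with both siRNAs. HPX read -0.98, -0.12 and -0.73 in HA22T siControl and 0.19, 0.14 and -0.29 in PLC5. The difference was 0.62 (95% interval -0.04 to 1.28, adjusted p = 0.174) and 0.44 with siGALNT1 (adjusted p = 0.350). HP and HPX were well above background wherever they had a value.

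**Figure D2:**
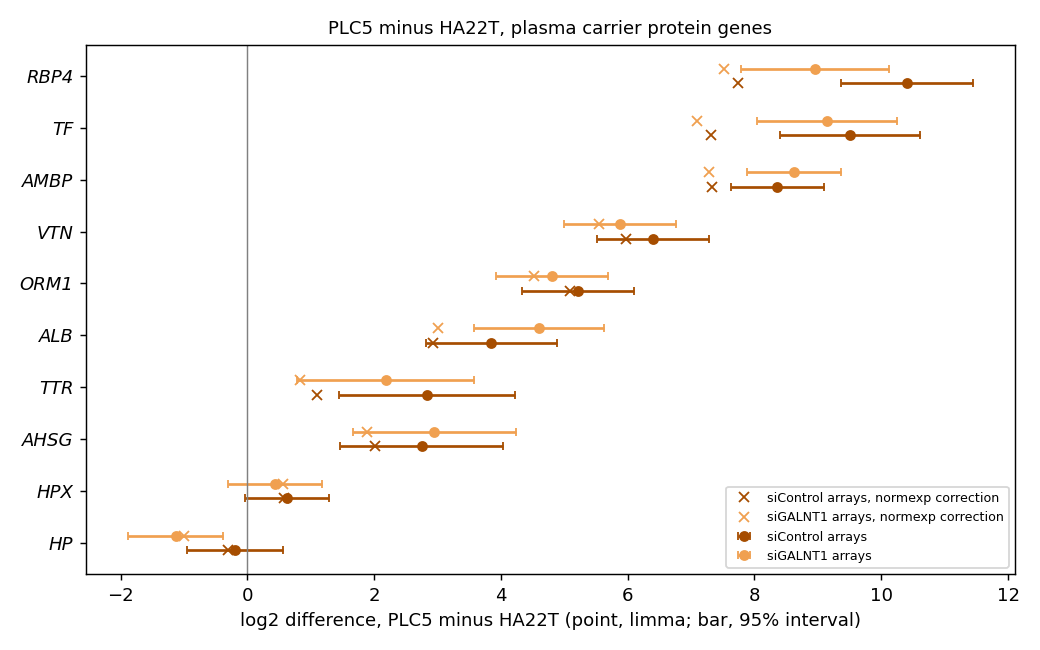
Log2 difference, PLC5 minus HA22T (x axis), of the 10 genes (y axis) on siControl and siGALNT1 arrays. Points and bars are limma estimates with 95% intervals, and crosses are the estimates after normexp background correction, which lie nearer 0 for the genes that are dim in HA22T, for example 7.73 against 10.40 for RBP4 with siControl.

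Background treatment mattered most for the genes near background in HA22T. With normexp correction the siControl differences were 7.73 for RBP4, 7.32 for TF, 7.33 for AMBP, 2.94 for ALB, 2.01 for AHSG and 1.09 for TTR, and 8 genes passed here too. With values held at the lowest measured signal of each array they were 9.09 for RBP4, 8.49 for TF and 1.57 for TTR.

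Slide and line were partly joined. In PLC5, 9 of 10 genes had a higher mean on the slide shared with HA22T, and for 5 of them (TTR, TF, AMBP, ORM1 and VTN) each array on that slide lay above each array on the other. Within the shared slide (3 HA22T arrays against 1 PLC5 array) the siControl differences were 10.38 for RBP4, 10.10 for TF, 8.88 for AMBP, 6.92 for VTN, 5.94 for ORM1, 4.30 for ALB, 3.43 for AHSG, 3.21 for TTR, 0.80 for HPX and -0.13 for HP. These are as large as the differences over all arrays or close to them. A part of the slide in the PLC5 spread was not tested.

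The second comparison was siGALNT1 against siControl within each line. None of the carrier genes passed the test. The brighter GALNT1 probe did not pass it in either line, although its siControl and siGALNT1 values did not overlap. A change of that size went uncalled, so the lack of a call does not show that a carrier gene was unchanged. In HA22T 7 of the 10 genes could be tested, and 0 were called (limma), where 1 of 36327 probes (0.00275%) was called, the dimmer of the 2 probes of GALNT1 itself, and 1210 had an unadjusted p below 0.05. With the replicate number as a block that call was lost as well (0 probes). In PLC5 all 10 were tested, and 0 were called among 38070 probes (0%), of which 469 had an unadjusted p below 0.05.

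**Figure D3:**
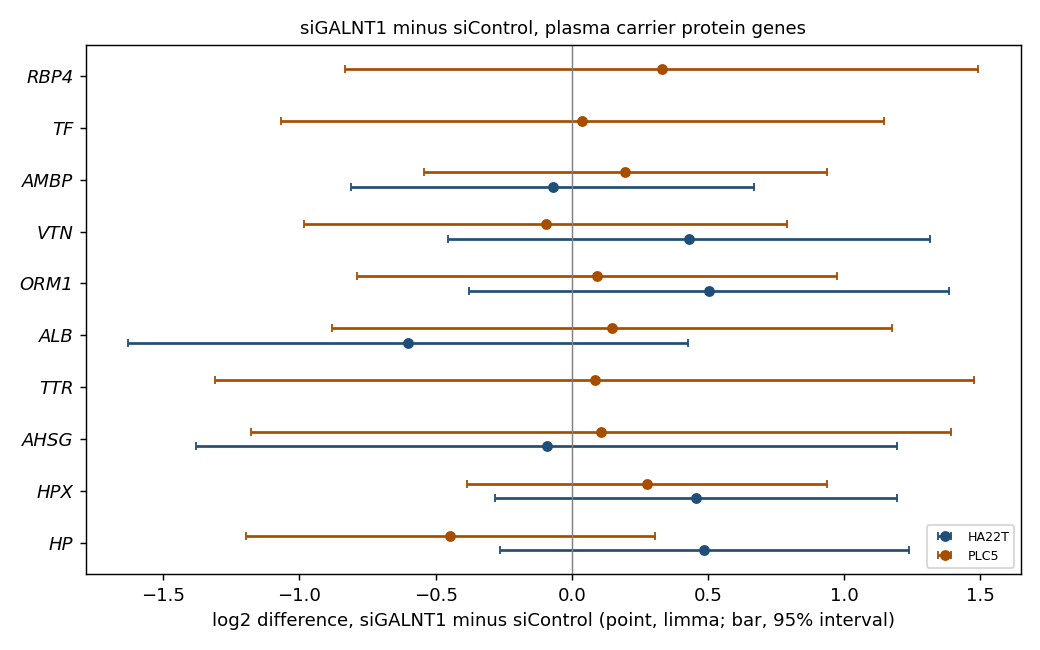
Log2 difference, siGALNT1 minus siControl (x axis), of the carrier genes (y axis) in HA22T and PLC5, with limma estimates and 95% intervals. TTR, TF and RBP4 have no HA22T point because too few HA22T arrays were well above background, and each interval drawn spans 0.

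In HA22T, ALB read -3.76, -5.55 and -5.05 with siGALNT1, against -4.74 to -3.78 with siControl, a difference of -0.60 (95% interval -1.63 to 0.43). Of the siGALNT1 values only -3.76 was well above background. With values held at the lowest measured signal of each array the ALB difference was 0.20. ORM1 read -0.63, -0.39 and -1.62, a difference of 0.51 (-0.38 to 1.39), and VTN -3.34, -2.36 and -2.07, a difference of 0.43 (-0.46 to 1.32). These groups overlapped. Within the pairs of same-numbered arrays VTN was higher with siGALNT1 in 3 of 3, by 0.21, 0.23 and 0.85, and with the replicate number as a block its adjusted p was 0.875 (limma). ALB was higher in 1 of 3 pairs, ORM1, HP and AHSG in 2 of 3, AMBP in 0 of 3 and HPX in both pairs that had values. AHSG and AMBP, like ALB, had 1 of 3 siGALNT1 arrays well above background. The pair counts of these genes rest partly on readings at background. HP differed by 0.49, HPX by 0.46 (2 siGALNT1 values, since replicate 2 was flagged as non-uniform), AHSG by -0.09 and AMBP by -0.07, and every adjusted p was 1.00 by limma. RBP4 was not tested, and its siGALNT1 values of -4.88, -5.65 and -4.14 lay above the siControl values, but only 1 of these 6 arrays was well above background.

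In PLC5 all 10 genes were well above background wherever they had a value. ALB read 0.01, 0.20 and -0.77 with siGALNT1 against 0.12, -0.54 and -0.59 with siControl, a difference of 0.15 (95% interval -0.88 to 1.18). TF differed by 0.04 (-1.07 to 1.15), AMBP by 0.20 (-0.54 to 0.94), ORM1 by 0.09 (-0.79 to 0.97) and VTN by -0.09 (-0.98 to 0.79). The widest intervals were for TTR (0.08, -1.31 to 1.48) and AHSG (0.11, -1.18 to 1.39). Both of them, and that of TF, still allow changes of more than 1 on the log2 scale in either direction. HPX differed by 0.28 and HP by -0.45 (-1.20 to 0.31). RBP4 read 4.14 and 3.99 against 3.62 to 3.88, all higher, with a difference of 0.33 and an exact permutation p of 0.2, in a design of 2 against 3 arrays. With 3 against 3 arrays the smallest two-sided exact p is 0.1.

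Whether the knockdown change differed between the lines was tested as an interaction, PLC5 change minus HA22T change. It passed for 0 of the 10 genes and for 0 of 39100 probes (0%), of which 1028 had an unadjusted p below 0.05. Over the 7 genes that could be tested in both lines it ran from -0.93 (SE 0.48) for HP to 0.75 (SE 0.66) for ALB. For VTN it was -0.53, for ORM1 -0.41, for HPX -0.18, for AHSG 0.20 and for AMBP 0.27.

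Other genes of the same program were read from lists of names, also chosen with earlier results of these data known. Of the liver epithelial markers outside the 10 genes, 7 of 9 were higher in PLC5 with siControl and 0 lower, with a median log2 difference of 5.70. Over all 17417 genes tested, 11.1% were higher and 16.6% lower. The apolipoproteins APOA2 and APOB were higher by 9.91 and 9.44, and the fibrinogen chains FGG and FGA by 9.11 and 8.58. APOB and FGG were each well above background on 2 of 3 HA22T siControl arrays. The epithelial keratins KRT8 (-0.99, adjusted p = 0.103, limma) and KRT18 (-0.37, adjusted p = 0.510) did not pass and read 5.70 to 7.00 as group means in both lines. HA22T therefore had signal for both keratins. On its siControl arrays APOA2, APOB, FGA and FGG read -4.85 to -2.86 as group means, and FGB read -4.34. SERPINA1 (0.26) and APOA1 (-0.23), of the same list, were well above background there on 3 of 3 arrays. These readings come from different probes and do not rank the genes against each other.

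Of 20 tested other secreted liver plasma proteins, 9 were higher and 2 lower, with a median of 0.46 (11.1% and 16.6% over all genes). A2M, a protease inhibitor, and PZP, its relative, were not well above background on any HA22T siControl array and were higher in PLC5 by at least 1721-fold and at least 60.2-fold. Ceruloplasmin (CP), the copper carrier, was higher by 6.78. The acute-phase apolipoprotein SAA1 ran the other way and was lower in PLC5, where it was not well above background on any array, by at least 423-fold. Of the IL6 signalling genes 2 of 11 were higher and 4 lower, with a median of -0.37 (all genes, 11.1% higher and 16.6% lower). SOCS3, a feedback inhibitor of the pathway (log2 difference -3.41), IL6 (-3.24) and NFKBIZ (-1.67) were lower in PLC5, while the receptor IL6R was higher by 1.67.

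**Figure D4:**
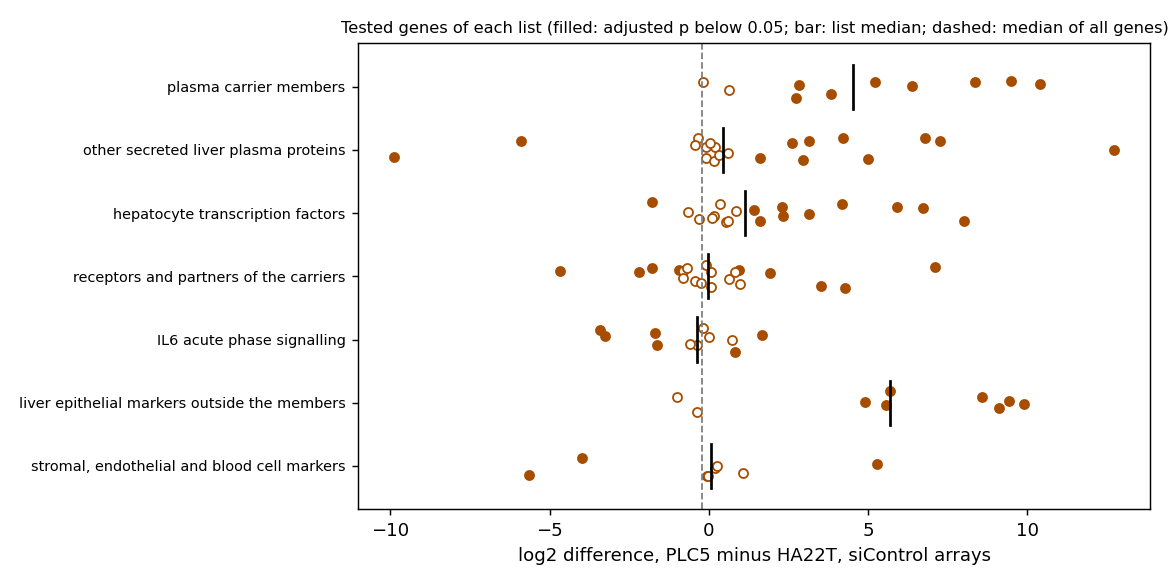
Log2 difference, PLC5 minus HA22T on siControl arrays (x axis), for the tested genes of 7 lists (y axis). Filled points have an adjusted p below 0.05, bars are list medians, and the dashed line is the median of all genes, -0.21. The carriers and the liver epithelial markers lie mostly to the right, and the IL6 genes mostly at or below 0.

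Among the hepatocyte transcription factors 9 of 18 tested genes were higher and 1 lower, with a median of 1.14 (all genes, 11.1% and 16.6%). HNF4A was higher by 3.13 (adjusted p = 3.13e-04, limma), FOXA2 by 6.74, the bile acid receptor NR1H4 by 5.92 and CEBPA by 4.18. FOXA2 and NR1H4 were each well above background on 1 of 3 HA22T siControl arrays, so their differences rest partly on readings at background. PROX1 had no HA22T siControl array well above background and was higher by at least 56.9-fold. RXRA, the partner of many nuclear receptors, was lower (-1.78).

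Of the receptors and partners of the carriers 5 of 20 tested genes were higher and 4 lower, with a median of -0.01 (all genes, 11.1% and 16.6%). The asialoglycoprotein receptor subunits ASGR1 and ASGR2, which clear desialylated plasma proteins, were higher by 7.12 and 3.51. FCGRT, the receptor that recycles albumin, was higher by 4.27, and ITGB3, a subunit of the vitronectin receptor, was lower (-4.67). For ITGB3 only 1 of 3 PLC5 siControl arrays was well above background. Among markers of stromal, endothelial and blood cells, 12 of 14 had a probe and 8 were tested. Of these 8, 1 was higher and 2 lower, with a median of 0.09 (all genes, 11.1% and 16.6%), and the others did not pass. PECAM1 was higher by 5.30, and VIM (-5.65) and CD14 (-3.97) were lower in PLC5. Their part in the line differences was not tested. No gene of these lists was called in a knockdown comparison by its brightest probe, where 0 genes of 16967 in HA22T and of 17316 in PLC5 passed.

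The genes whose 12-array profile, centered on its mean, lay closest to the mean profile of the 10 carriers were SELENOW, SAGE1, FAM217B, LIN7A and GPC3. Their root mean square distances ran from 0.219 to 0.276 on the log2 scale among 18181 genes compared. Their differences between the lines with siControl ran from 4.48 for GPC3 to 4.96 for FAM217B. Differences near the mean of the carriers follow from how these genes were chosen. That mean joins HP and HPX, which did not pass, with genes that differed far more, such as RBP4 and TF.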

How the data were processed

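RNA was measured on 12 one-color arrays. Images were read by the authors with Agilent Feature Extraction 10.5.1.1, and the deposited intensity values are background-subtracted spot signals with flags. A deposited log2 table, of unstated scaling, served only as an alternative. The methods leave out spots flagged as non-uniform, and these were dropped. From each log2 signal the array's 75th percentile was subtracted. Probes were named through RefSeq accessions (28174 of 50599 matched), and the brightest probe stood for a gene. The groups were fitted together with limma 3.58.1 in R 4.3.3. Testing required 3 or more of the 6 compared arrays well above background, with Benjamini-Hochberg adjustment and a threshold of 0.05. The precision is limited by 3 arrays per group. The members, lists and rules for naming genes were chosen with earlier results of these data known. The rule names all members, GALNT1, ORM2, HPR, up to 4 genes per list with the largest called line difference, HNF4A, KRT8, KRT18 and the 5 nearest profiles.

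A bound ("at least N-fold") sets the bright group's mean against the mean, over the dim group's arrays, of the higher of the lowest signal well above background and the probe's own value. The fit was tested on simulated data. Arrays with the same replicate number deviated from their group means with correlations of 0.55, 0.40 and 0.43 in HA22T and of 0.71, -0.02 and 0.16 in PLC5. Between the siControl arrays of HA22T and PLC5, which are different cells, the correlations were 0.35, 0.34 and -0.04. These values do not establish that the arrays are paired, in HA22T or in PLC5. Alternatives were the deposited table, median scaling, quantile normalization, normexp correction (offset 50), no filter, a filter on all 6 arrays, non-uniform spots kept, the slide or replicate number as a block, the methods' t-test, each array left out, and, added after seeing the data, values held at the lowest measured signal. Each member has 1 probe, so a mean over probes changes nothing.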

Additional observations from a re-analysis of the deposited data

How the results depend on the processing

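Of the 10 carrier genes, those higher in PLC5 stayed higher under each alternative run. With a filter on all 6 arrays, 4 genes (siControl) and 3 (siGALNT1) passed, since fewer genes were then tested. The 3 were ORM1 and VTN, higher in PLC5, and HP, which was lower. The line difference of TTR lost its call with the methods' t-test (adjusted p = 0.0669 with siControl), and with siGALNT1 under normexp (0.83, adjusted p = 0.0811), the slide as a block (2.50, 0.0508) and values held at the lowest measured signal (1.19, 0.0964). HP with siGALNT1 lost it in the deposited table (-0.92, 0.0617), with non-uniform spots kept (-0.90, 0.0709) and with the slide as a block (-1.13, 0.0892), and the methods' t-test lost the siGALNT1 calls of TTR (adjusted p = 0.149), AHSG (0.0940) and HP (0.171). Called probes between the lines with siGALNT1 were 6149 with the filter on all 6 arrays, 4407 by the methods' t-test and 6013 to 9875 with 1 array left out, the lowest without PLC5 siGALNT1 replicate 2. For the HA22T knockdown 2 probes were called under normexp and with values held at the lowest signal, 0 without a filter, with the filter on all 6 arrays, with the slide as a block and by the methods' t-test, and 0 to 1 with 1 array left out. For the PLC5 knockdown 2 were called under normexp. Pairing arrays by a replicate block gave 0 called probes in HA22T, 0 in PLC5, and 9507 and 9973 between the lines, and no carrier gene changed its call.

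Knockdown estimates near 0 changed sign, none of them called. In HA22T they were 0.20 for ALB, 0.32 for AHSG and 0.37 for AMBP with values held at the lowest signal, and 0.18 for AHSG and 0.17 for AMBP under normexp. For RBP4 in PLC5 they were -0.017 in the deposited table and -0.027 with non-uniform spots kept. The interaction became -0.055 for ALB, -0.21 for AHSG and -0.17 for AMBP with values held at the lowest signal, and -0.12 for AHSG and -0.042 for AMBP under normexp. With 1 array left out, the HA22T estimates ran from -0.58 to 0.44 for AHSG and from -0.29 to 0.15 for AMBP. In PLC5 they ran from -0.044 to 0.44 for ALB, -0.059 to 0.33 for TTR, -0.18 to 0.41 for TF, -0.23 to 0.61 for AHSG, -0.0099 to 0.46 for AMBP, -0.13 to 0.45 for ORM1 and -0.31 to 0.17 for VTN. The interaction ran from -0.33 to 0.70 for AHSG and from -0.43 to 0.0063 for HPX. The cause of these changes was not tested. Signal near background limits ALB, AHSG, AMBP, TTR, TF and RBP4 in HA22T.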
